A study of Mus musculus with 6 samples.

Results

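The proteasome subunits are described here in 3 wild-type and 3 Pgc1b knockout mouse hearts. Members were all probe sets with values whose single gene symbol starts with Psma, Psmb, Psmc or Psmd, and the rule found 9 probe sets of 8 genes among the 643 gene probe sets with values, which cover 494 genes. The core particle had 3 genes, Psma1, Psmb5 and Psmb7, with 1 probe set each. The regulatory particle had 5 genes, Psmc1, Psmc3, Psmc4, Psmc5 and Psmd2, with 6 probe sets, of which 2 were for Psmc4. No further Psma, Psmb, Psmc or Psmd gene was analysed here, among them the interferon-induced subunits Psmb8, Psmb9 and Psmb10. No probe set with values carried a subunit together with a second symbol.

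Both groups came from a mixed sv129 and C57BL/6 background, and the knockout group is labelled as lacking PGC-1β, the coactivator encoded by Pgc1b (Ppargc1b in current tables). Each heart was a separate biological replicate on 1 Affymetrix array. From each, 25 ng of total RNA was amplified before labelling. The sources used here state neither age nor sex, and not how the allele was made. Pgc1b itself was not analysed here, so the genotype labels have no check in these values.

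The proteasome is the large protease that degrades ubiquitin-tagged proteins. Its core is a barrel of stacked rings, with Psma subunits in the outer rings that gate the entry and Psmb subunits in the inner rings, some of which carry the catalytic sites. The regulatory particle caps the barrel. Its Psmc subunits form a ring of ATPases that unfold the substrate and push it into the core, and its Psmd subunits recognise ubiquitin, remove it and hold the cap together. In heart muscle the proteasome takes part in the turnover of contractile and other proteins. Pgc1b binds nuclear receptors, oestrogen-related receptors among them, and is best known for raising the transcription of mitochondrial genes.

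Levels are log2 signals as deposited, differences are knockout minus wild type on that scale, and levels of different probe sets were not compared beyond calling one of a gene's probe sets the brighter or brightest. No proteasome probe set was called: 0 of 9 had a Benjamini-Hochberg adjusted p under 0.05 in limma, beside 0% of the 643 probe sets, and the smallest adjusted p among the 9 was 0.460. At an unadjusted limma p under 0.05 there was 1 of 9, the brighter probe set of Psmc4, beside 10.3% of all probe sets. The mean was higher in knockout hearts for 7 of the 9 (6 of 6 regulatory and 1 of 3 core probe sets) beside 54.3% of all. After each array was centred on its median, 5 of the 9 had a higher mean, beside 42% of all. The median difference was 0.04 over the 9 and 0.01 over all 643, and the median absolute difference was 0.04 over the 9 and 0.10 over all 643. The 3 knockout hearts lay above the 3 wild-type hearts in 2 of the 9, Psmc3 and the brighter probe set of Psmc4, beside 9.64% of all probe sets, and below them in 0 of the 9, beside 9.02%. Counts of 1 or 2 in 9 are too small to tell whether they differ from these background shares. The absolute difference was below the median of all probe sets in 8 of the 9, all but the brighter probe set of Psmc4.

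**Figure D1:**
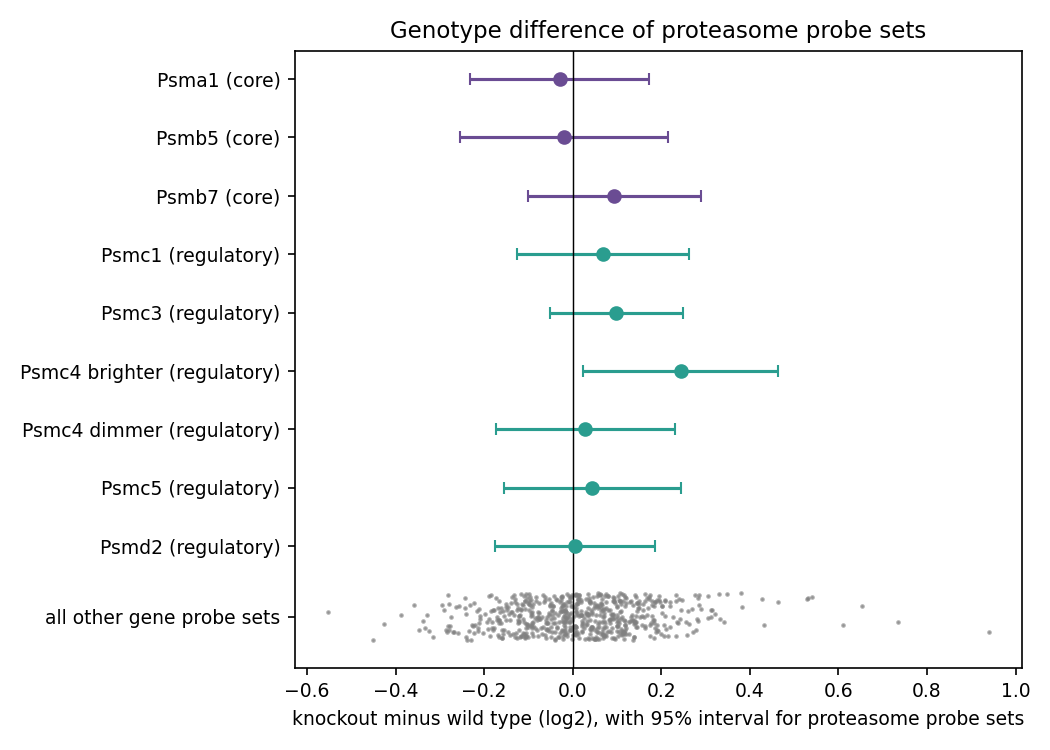
Knockout minus wild-type differences (log2, horizontal axis) of the 9 proteasome probe sets with limma's 95% intervals, core in purple and regulatory in green, above the differences of all other gene probe sets (grey points, spread vertically for visibility). The brighter probe set of Psmc4 is the 1 member whose interval, 0.02 to 0.46, does not include 0, and the other 8 lie between -0.03 and 0.10.

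The core genes differed by -0.03 to 0.09 between genotypes, with 95% intervals that all included 0 and reached from -0.25 to 0.29. Psma1 (1415695_at), a subunit of the outer ring, stood at 9.66, 9.58 and 9.59 in the wild-type hearts and at 9.44, 9.71 and 9.60 in the knockout hearts. The knockout values enclosed the wild-type values, with replicate 1 lowest and replicate 2 highest of the 6. The difference was -0.03 (95% interval -0.23 to 0.17, adjusted p = 0.926 in limma), a knockout level of 98.0% of wild type.

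Psmb5 (1415676_a_at) carries the chymotrypsin-like catalytic site, the main target of the drug bortezomib. It stood at 9.57, 9.55 and 9.73 in wild-type hearts and at 9.44, 9.60 and 9.75 in knockout hearts. The groups overlapped, and knockout replicate 1 was again the lowest of the 6 hearts. The difference was -0.02 (interval -0.25 to 0.22, adjusted p = 0.976 in limma). Without knockout replicate 1 the differences of Psma1 and Psmb5 turned to 0.04 and 0.06.

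Psmb7 (1416240_at) carries the trypsin-like site of the inner ring. Its signal was 11.28, 11.20 and 11.27 in wild-type hearts and 11.21, 11.36 and 11.45 in knockout hearts. Knockout replicates 2 and 3 were above every wild-type heart and replicate 1 was within their range. The difference was 0.09 (interval -0.10 to 0.29, adjusted p = 0.694 in limma), 0.16 without knockout replicate 1, 0.04 without knockout replicate 3 and 0.03 after a further quantile normalization.

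Among the ATPases of the regulatory particle, Psmc4 and Psmc3 had the differences of largest size. The brighter probe set of Psmc4 (1416290_a_at) stood at 9.01, 8.98 and 8.79 in wild-type hearts and at 9.24, 9.23 and 9.04 in knockout hearts. Every knockout heart was above every wild-type heart, although knockout replicate 3 and wild-type replicate 1 were close. Means were 8.93 ± 0.12 and 9.17 ± 0.11 (SD, n = 3 each), a difference of 0.24 (interval 0.02 to 0.46) or a knockout level of 118% of wild type. The unadjusted p was 0.0343 and the adjusted p 0.460 in limma, so the difference did not pass, and it ranked 47 by p and 65 by size among the 643 probe sets. The level of the hybridisation spikes, control RNAs added to each sample, was 9.89 ± 0.23 on the wild-type and 9.52 ± 0.18 on the knockout arrays (SD, n = 3). All knockout arrays lay below all wild-type arrays in this level, so as a covariate it cannot be told apart from genotype. With that covariate the difference of the brighter Psmc4 probe set was 0.43. It was 0.18 after quantile normalization, 0.20 after centring of the arrays and 0.17 without wild-type replicate 3, with unadjusted limma p-values of 0.177, 0.117 and 0.111.

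The dimmer probe set of Psmc4 (1416291_at) did not show that difference. It stood at 8.21, 8.15 and 8.23 in wild-type hearts and at 8.07, 8.29 and 8.32 in knockout hearts, where replicate 1 was the lowest and replicates 2 and 3 the highest of the 6. Its difference was 0.03 (interval -0.17 to 0.23, adjusted p = 0.929 in limma), and it was -0.02 after centring of the arrays. Knockout replicate 1 had the highest of the 6 values with the brighter and the lowest with the dimmer probe set, so the probe sets of Psmc4 did not order the hearts alike.

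Psmc3 (1416282_at), another ATPase of the ring, had the smallest spread within groups of all members. It stood at 9.93, 9.90 and 9.87 in wild-type hearts and at 10.00, 10.00 and 10.01 in knockout hearts. The groups did not overlap, and the pooled SD within groups was 0.02, where the median over the 643 probe sets was 0.12. The difference was 0.10 (interval -0.05 to 0.25, adjusted p = 0.612 in limma), a knockout level of 107% of wild type. It was 0.05 after centring of the arrays, by which the groups came to overlap in all 9 members, beside 4.67% of all probe sets with the knockout hearts above.

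Psmc1 (1416005_at) and Psmc5 (1415740_at), both ATPases too, and Psmd2 (1415831_at), a large scaffold subunit that docks ubiquitin receptors and shuttle factors, overlapped between the genotypes. Psmc1 stood at 8.87, 8.82 and 8.83 in wild-type hearts and at 8.78, 9.03 and 8.92 in knockout hearts, a difference of 0.07 (interval -0.13 to 0.26) that was 0.13 without knockout replicate 1 and 0.01 without knockout replicate 2. Its knockout hearts lay on both sides of a narrow wild-type range. Psmc5 stood at 8.74, 8.87 and 8.87 in wild-type hearts and at 8.74, 8.95 and 8.93 in knockout hearts, a difference of 0.04 (interval -0.15 to 0.24) that was -0.02 after a further quantile normalization, 0.11 without knockout replicate 1 and 0.00 without wild-type replicate 1. Replicate 1 was the lowest heart of its own genotype in both groups. Psmd2 stood at 9.38, 9.27 and 9.35 in wild-type hearts and at 9.27, 9.29 and 9.44 in knockout hearts, the smallest difference of the 9 (0.00, interval -0.18 to 0.19, and -0.05 after quantile normalization). Adjusted limma p-values of these 3 genes lay between 0.771 and 0.979.

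**Figure D2:**
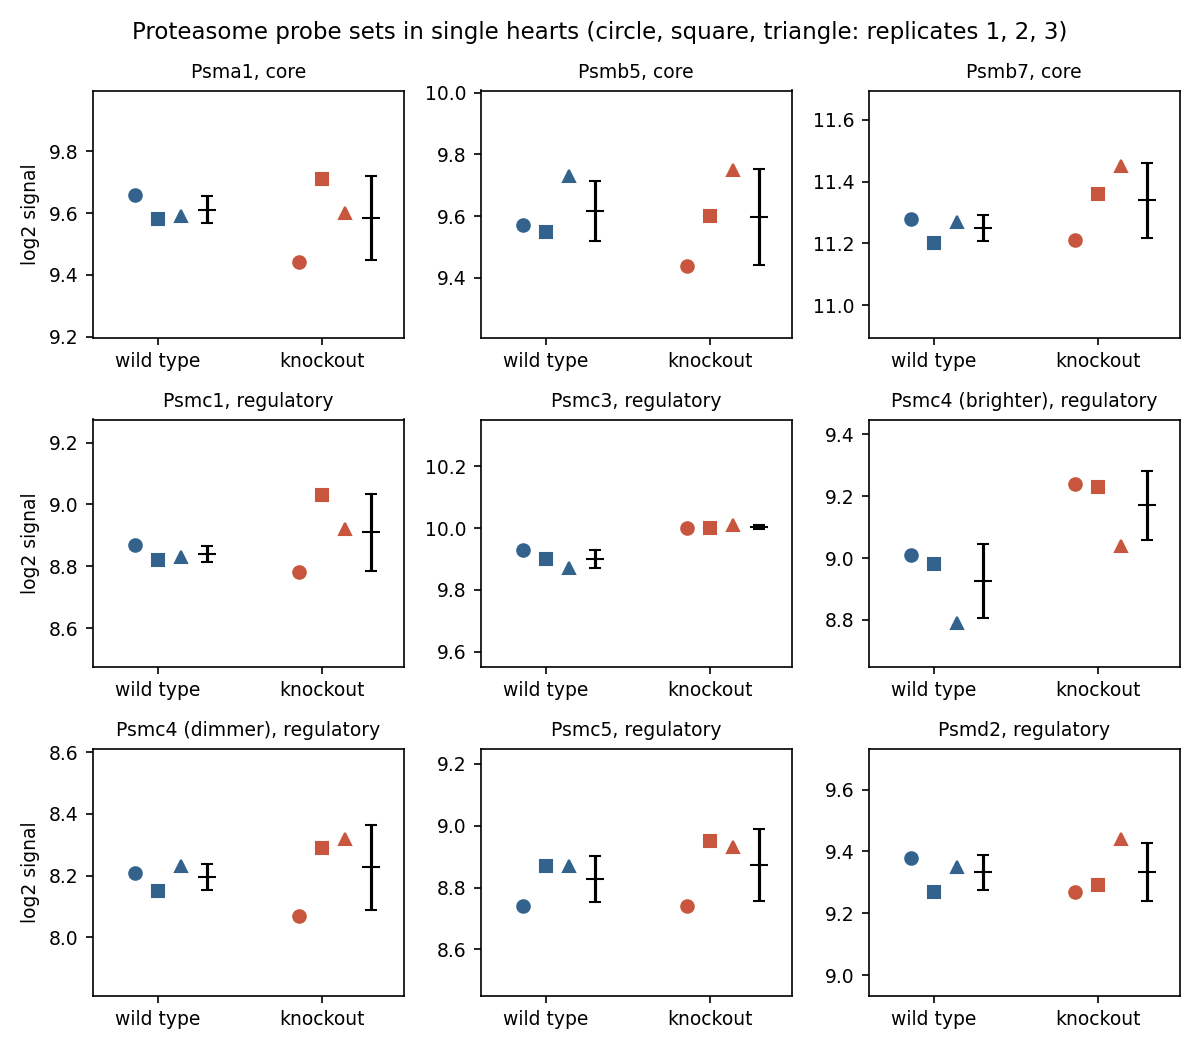
Signals (log2, vertical axis) of the 9 proteasome probe sets in each wild-type (blue) and Pgc1b knockout (red) heart, with the mean and SD of each group of 3 at the side; every panel spans the same height of 0.8. The groups are separate in Psmc3 and the brighter probe set of Psmc4, and knockout replicate 1 (circle) is the lowest knockout heart in 8 of the 9 panels.

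The 3 knockout hearts differed more among themselves than the wild-type hearts did. The range within the knockout group was wider than within the wild-type group in 7 of the 9 probe sets, beside 54.4% of all 643. Over the members the median range was 0.09 among wild-type and 0.24 among knockout hearts, and over all probe sets it was 0.19 and 0.21. Psmc3 and the brighter probe set of Psmc4 were the exceptions. Knockout replicate 1 was the lowest knockout heart in 8 of 9 probe sets, beside 46.5% of all, and lay below all wild-type hearts in 5, beside 32.8% of all. Knockout replicates 2 and 3 lay above all wild-type hearts in 7 and 8 of the 9, beside 36.1% and 32.5% of all. With knockout replicate 1 left out, a step singled out after its values had been seen, all 9 had a higher mean (57.4% of all) and 6 of 9 had both knockout hearts above the wild-type hearts (20.1% of all), and in limma 0 of 9 were called (0% of all) and 0 of 9 had an unadjusted p under 0.05 (13.7% of all).

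Averaged over genes with the brightest probe set of each, the core particle stood at 10.17, 10.11 and 10.20 in wild-type and at 10.03, 10.22 and 10.27 in knockout hearts. Knockout replicate 1 was thus 0.13 below the wild-type mean and replicates 2 and 3 were 0.07 and 0.11 above it. The group difference of 0.01 became -0.03 with quantile normalization or centring, 0.09 without knockout replicate 1 and -0.03 without knockout replicate 3. The regulatory particle stood at 9.19, 9.17 and 9.14 in wild-type and at 9.21, 9.30 and 9.27 in knockout hearts. With these probe sets and no centring, all 3 knockout hearts were above the wild-type hearts, with a difference of 0.09. Their separation was not examined after centring or with both probe sets of Psmc4. The brighter probe set of Psmc4, which entered this mean, differed by 0.24 and the dimmer one by 0.03. The regulatory difference was 0.05 after quantile normalization or centring, 0.07 with all probe sets of a gene averaged first, and 0.12 without knockout replicate 1. These are descriptions with no test, since the members were chosen with results known.

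The median over all 643 gene probe sets was 7.49, 7.48 and 7.53 in wild-type hearts, 7.45 in knockout replicate 1, and 7.61 and 7.58 in knockout replicates 2 and 3. Knockout replicate 1 was the lowest and knockout replicates 2 and 3 the highest of the 6 hearts both in this median and in the core mean. The regulatory mean ordered the hearts otherwise. Knockout replicate 1 was above all wild-type hearts, and wild-type replicate 3, with the highest median of its group, was the lowest wild-type heart. Most regulatory members did not share this place of knockout replicate 1. The brighter Psmc4 probe set stood there 0.31 and Psmc3 0.09 above the wild-type mean. Psmc1, Psmc5, Psmd2 and the dimmer Psmc4 probe set stood at -0.06, -0.09, -0.06 and -0.13 from it. The median over all 643 gene probe sets differed by 0.04 between genotypes, over the small part of the array that was analysed here. Actb was read near both ends of its transcript as a sign of RNA integrity. Its 3' signal was above its 5' signal by 0.75 ± 0.02 in the wild-type and 0.63 ± 0.11 in the knockout group (SD, n = 3). All knockout hearts lay below all wild-type hearts in this value, so it cannot be told apart from genotype as a covariate. The same measure for Gapdh was 0.08 ± 0.09 in the wild-type and 0.08 ± 0.11 in the knockout group. The part of these array-wide values in the proteasome pattern was not tested beyond the centring and covariates given.

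**Figure D3:**
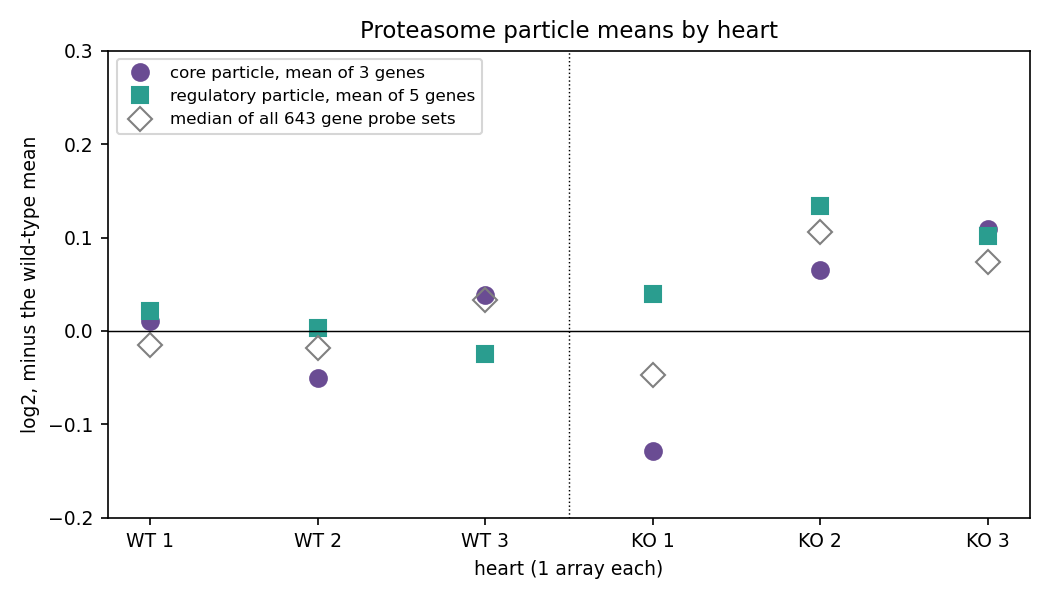
Mean of the 3 core genes (circles), mean of the 5 regulatory genes (squares) and median of all 643 gene probe sets (open diamonds) in each heart, as log2 distance from the wild-type mean (vertical axis). Knockout replicate 1 lies at -0.13 for the core and 0.04 for the regulatory genes, and knockout replicates 2 and 3 are above 0 in all 3 measures.

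The gene starts of 6 of the 8 members were matched to RefSeq promoter windows of GRCm38.p6, and those of Psmc3 and Psmb7 were not. Of the sequences upstream of the start, 3 are shown, for Psmc4 because it had the largest difference, for Psmb5 because it holds a letter match to the antioxidant response element bound by Nfe2l1 and Nfe2l2, known activators of proteasome genes, and for Psmd2 because it holds a letter match to the half-site of the oestrogen-related receptors. Each is 250 bases long and ends at the base before the start site, 5′ to 3′ on the gene's strand, with capitals for matches of the 5 motifs searched. Psmc4 lies on the minus strand at chr7:28050093-28050342, Psmb5 on the minus strand at chr14:54617996-54618245 and Psmd2 on the plus strand at chr16:20651402-20651651.
Psmc4: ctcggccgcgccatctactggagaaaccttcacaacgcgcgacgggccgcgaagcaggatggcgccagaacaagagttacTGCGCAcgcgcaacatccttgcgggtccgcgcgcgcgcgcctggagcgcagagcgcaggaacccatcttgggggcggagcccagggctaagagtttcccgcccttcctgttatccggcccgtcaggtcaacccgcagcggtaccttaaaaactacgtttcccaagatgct
Psmb5: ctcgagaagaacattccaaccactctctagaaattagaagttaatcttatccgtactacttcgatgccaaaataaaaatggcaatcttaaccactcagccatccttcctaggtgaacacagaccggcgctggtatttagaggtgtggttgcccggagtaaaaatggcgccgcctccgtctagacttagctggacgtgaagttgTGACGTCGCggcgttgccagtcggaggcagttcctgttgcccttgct
Psmd2: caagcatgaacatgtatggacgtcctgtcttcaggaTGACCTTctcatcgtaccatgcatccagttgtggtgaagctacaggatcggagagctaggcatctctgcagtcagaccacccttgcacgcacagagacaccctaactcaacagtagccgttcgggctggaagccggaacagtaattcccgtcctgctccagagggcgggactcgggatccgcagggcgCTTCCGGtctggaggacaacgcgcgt

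Both strands were searched. The CCAAT box of NF-Y (CCAAT) was found in 2 of the 6 windows, Psma1 and Psmc1, and in 33.8% of 32851 windows of the same length. The antioxidant response element core (TGACNNNGC) was in Psmb5 alone (10.2% of all windows), with its first base 47 bases before the start. The ETS site (CCGGAAG) was in Psmc1 and Psmd2 (6.91%), at 28 and 26 bases before the start. The core of nuclear respiratory factor 1 (TGCGCA) was in Psma1 and Psmc4 (6.43%), and in Psma1 it shared 1 base with a CCAAT box on the other strand. The oestrogen-related receptor half-site (AAGGTCA) was in Psmd2 alone (4.08%), on the minus strand of the gene at 214 bases before the start, and Psmd2 was the member with the smallest difference between genotypes. Psmc5 held none of the 5. A match is a description of letters, and no motif was shared by more than 2 of the 6 windows.

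The genes around the proteasome, from 12 lists of ubiquitin enzymes, assembly factors, chaperones and other proteases, were measured in 8 lists with 27 genes. By limma 0 of the 27 were called, beside 0% of all 643 probe sets. An unadjusted limma p under 0.05 was found for 2, Tmem129 and Tap1, both lower, beside 10.3% of all. The mean was higher for 15 and lower for 12, beside 54.3% of all with a higher mean. The median difference of the 27 was 0.05. The proteasome activators and inhibitor (Psme1 to Psmf1), the assembly factors, the ubiquitin genes and the transcription factors of proteasome genes were not analysed here.

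Of the enzymes that attach ubiquitin, none was called. The E2 enzymes Ube2g1 and Ube2r2, which carry activated ubiquitin, differed by 0.10 and 0.18, and Ube2v1 of the same list by -0.09. Ube2g1 ranged from 0.05 to 0.17 and Ube2v1 from -0.12 to -0.05 on leaving out single arrays. Ube2r2 stood at 7.91, 8.63 and 7.85 in wild-type and at 9.01, 7.94 and 7.99 in knockout hearts. A heart of each genotype stood apart, and the difference was -0.17 without knockout replicate 1 and 0.43 without wild-type replicate 2. Of 10 measured E3 ligases and adaptors, 7 had a lower and 3 a higher mean, beside 54.3% of all probe sets with a higher mean. Tmem129, a ligase of the endoplasmic reticulum membrane, had 7.16, 7.17 and 7.10 in wild-type and 6.68, 6.90 and 6.85 in knockout hearts, with no overlap (-0.33, adjusted p = 0.298 in limma). Trim27 differed by -0.15 and the large ligase Huwe1 by -0.11, and both overlapped between the genotypes. Huwe1 differed by -0.04 without wild-type replicate 2, and Trim27 by -0.10 without wild-type replicate 2, -0.24 without wild-type replicate 1 and -0.32 with the spike covariate.

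Of the factors that work at the proteasome itself, none was called by limma. Usp14, a deubiquitinase that sits on Psmd2, stood at 7.39, 7.38 and 7.22 in wild-type and at 7.21, 7.61 and 7.56 in knockout hearts. Replicate 1 was the lowest and replicates 2 and 3 the highest of the 6, and the difference was 0.13 (interval -0.15 to 0.41). Without knockout replicate 1, singled out after its values had been seen, the difference was 0.25 (adjusted p = 0.320 in limma, with an unadjusted value of 0.0238). In that setting 13.7% of all probe sets had an unadjusted limma p under 0.05. Usp14 differed by 0.05 without knockout replicate 2. Zfand5, an activator of the proteasome in muscle wasting, differed by 0.14 in its brightest probe set without overlap, and by 0.16 and -0.06 in its other probe sets, where the genotypes overlapped. Zfand2a, an arsenite-induced proteasome adaptor, differed by 0.07 (0.02 to 0.13 on leaving out single arrays), and Ublcp1, the proteasome phosphatase, by 0.01. These last 3 genes were added to the lists after the measured symbols had been seen. In limma 0 of the 3 were called or had an unadjusted p under 0.05, beside 0% and 10.3% of all probe sets. The COP9 signalosome, a complex related to the lid of the regulatory particle, had Cops4 at 0.17 (0.10 without knockout replicate 2 and 0.33 with the spike covariate), Cops8 at 0.02 (-0.02 after quantile normalization or centring) and Gps1 at -0.05, each with overlap.

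Cytosolic chaperones fold the proteins that would otherwise go to the proteasome. Of 7 measured genes, 6 had a higher mean, beside 54.3% of all probe sets, with a median difference of 0.14. In limma 0 of the 7 were called or had an unadjusted p under 0.05, beside 0% and 10.3% of all probe sets. Dnaja1, a co-chaperone of Hsp70, stood at 8.69, 9.07 and 8.79 in wild-type and at 8.77, 9.48 and 9.90 in knockout hearts. Knockout replicates 2 and 3 were the highest of the 6 while replicate 1 was within the wild-type range, and the difference was 0.53 (interval -0.08 to 1.15, adjusted p = 0.513 in limma). Without knockout replicate 1, singled out after its values had been seen, the difference was 0.84 (adjusted p = 0.163 in limma, with an unadjusted value of 0.00159). In that setting 13.7% of all probe sets had an unadjusted limma p under 0.05. Dnaja1 differed by 0.27 without knockout replicate 3 and by 0.23 with the spike or the Actb covariate, neither of which can be told apart from genotype. The chaperonin subunits Cct4 and Cct8 differed by 0.15 and 0.19, and the groups did not overlap in Cct4 (9.66, 9.67 and 9.62 against 9.72, 9.89 and 9.79). Cct8 differed by 0.29 without wild-type replicate 1, 0.08 without wild-type replicate 2 and 0.36 with the spike covariate.

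Of the other genes, Tap1 carries peptides made by the proteasome into the endoplasmic reticulum for antigen presentation. It stood at 5.85, 5.95 and 5.96 in wild-type and at 5.77, 5.79 and 5.64 in knockout hearts, all knockout hearts below (-0.18, adjusted p = 0.460 in limma, and -0.10 with the Actb covariate). Derl1, a channel component of protein export from the endoplasmic reticulum, differed by -0.07, and by 0.11 without knockout replicate 1. Capn2, a calcium-dependent protease, differed by 0.07, and by -0.03 without knockout replicate 2.

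**Figure D4:**
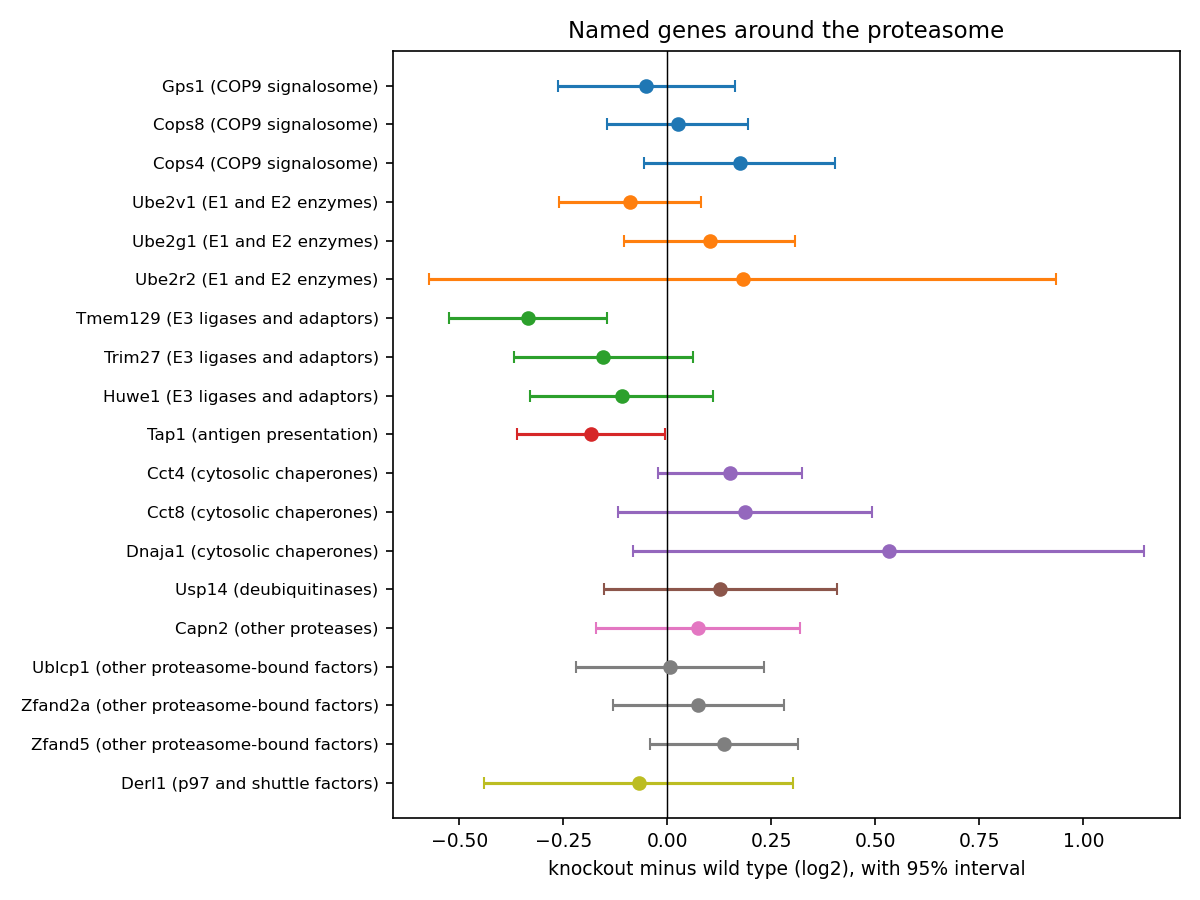
Knockout minus wild-type differences (log2, horizontal axis) with limma's 95% intervals of the 19 named genes around the proteasome, coloured by list. The intervals of Tmem129, at -0.33, and Tap1, at -0.18, do not include 0, and those of all the others do.

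Outside the members, the genes whose pattern over the 6 hearts was nearest to the mean of the core genes were Eif4g2, Hnrnpab and Xpo7, at root mean square distances of 0.20, 0.31 and 0.32 between profiles scaled to unit SD, where the median over 486 genes was 1.25. Eif4g2, a translation initiation factor, stood at 10.46, 10.41 and 10.46 in wild-type and at 10.31, 10.52 and 10.52 in knockout hearts. Nearest to the mean of the regulatory genes, which used the brighter Psmc4 probe set, were Cct4, Cnbp and Ifrd1, at 0.19, 0.23 and 0.24. These neighbours had knockout replicate 1 above all wild-type hearts, while Psmc1, Psmc5 and Psmd2 had it below their wild-type means. Ifrd1, a transcriptional coregulator, had a wider swing than any member, with 6.88, 7.01 and 6.49 in wild-type and 7.10, 8.02 and 7.46 in knockout hearts. Among the members, Psmc4's dimmer probe set was nearest to Psmb7 (0.42) and its brighter one to Psmc3 (0.49), while the pair for Psmc4 lay 1.41 apart. The distances are descriptions over these 6 hearts.

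The tissue label was checked on the heart muscle markers that had values. Of 18 such markers 2 were measured, Actc1, the cardiac actin, at 14.09 to 14.15 over the 6 hearts, and the gap junction gene Gja1, at 10.56 to 10.91. Of the endothelial, fibroblast, neutrophil, red cell and dividing cell lists 1 or 2 genes each were measured and 0 were called by limma. Their mean levels lay at 7.60 to 7.73 in wild-type and 7.48 to 7.74 in knockout hearts for the endothelial gene Tie1, 6.91 to 7.20 and 6.75 to 7.06 for the fibroblast gene Fmod, 3.45 to 3.54 and 3.49 to 3.74 for the neutrophil gene Mpo, 5.59 to 5.80 and 5.73 to 6.05 for the red cell genes Bpgm and Car1, and 5.77 to 5.80 and 5.75 to 5.98 for Mcm4 and Mcm7. Mpo, Car1 and Mcm4 lay below a mean of 6 and have no check against background, since detection calls were not used. The red cell mean joins Bpgm, at 7.20 to 8.06, with Car1, at 3.68 to 4.10. No marker of smooth muscle, skeletal muscle, fat, macrophages or lymphocytes was analysed here. In whole hearts, fewer cells of a type and less RNA per cell cannot be told apart.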

How the data were processed

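The authors deposited log2 signals, 1 column per array. The submitters' processing notes name GCOS, Partek and RMA with no version or order. RMA brings arrays to a common distribution, which largely removes a change that all genes share. Values were present for 707 of 45101 rows, 64 of them control probe sets, which stayed out of the tests. The other rows were not analysed here, and 0 columns were unmapped. Symbols came from a platform annotation, which can be old, with 1 symbol for 597 of the 643 gene probe sets, several for 26 and none for 20. All 597 matched RefSeq by gene ID (GRCm38.p6). No source used here names a genome build for the files. limma 3.58.1 in R 4.3.3 (lmFit, eBayes, constant prior variance, two-sided) was fitted to all 643 probe sets with genotype as the only term, Benjamini-Hochberg adjustment over the 643 and a threshold of 0.05. The script was tested on simulated data. The number of arrays limits the precision.

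Members and lists were chosen with earlier results of these data known. Every member is named with all its probe sets. Of the other lists, all measured genes are named where there were up to 3, otherwise the 3 with the smallest p, by the brightest probe set over the 6 arrays. For likeness, 3 genes per particle are named. The alternatives were a prior variance that follows expression, array weights, quantile normalization, median centring, a filter at a mean of 6, 1 probe set per gene, 2 covariates, a replicate block and leaving out each array.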

Additional observations from a re-analysis of the deposited data

How the results depend on the processing

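With 3 hearts per genotype, small differences have wide intervals. Trim27 and Tap1 fell below the filter at a mean of 6, as did the markers Mpo, Car1 and Mcm4. These genes have no check against background because detection calls were not used. No member was called under any of the 15 alternatives. Of the 9 member probe sets 4 (Psmb7, Psmc1, Psmc3 and the brighter one of Psmc4) and of the 19 named pathway genes 13 had the same sign in all alternatives. The cause was not tested for any change below.

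Of the members with an unadjusted p under 0.05 there were 0 after quantile normalization or centring and 0 to 1 on leaving out single arrays (0 without wild-type replicate 3, knockout replicate 1 or knockout replicate 2). Over all 643 probe sets these settings gave 66, 66, 50, 88 and 42. Members with all knockout hearts above numbered 1 after quantile normalization, 0 after centring and 2 to 6 on leaving out single arrays (6 without knockout replicate 1). Of all 643 probe sets, 9.64% had all knockout hearts above with the 6 arrays, 4.67% after centring and 20.1% without knockout replicate 1. The share of all probe sets is not given for quantile normalization or for leaving out any other array. The regulatory mean differed by 0.0453 after quantile normalization and 0.0485 after centring. Over all probe sets, 2 were called with a prior variance that follows expression, and 37 had an unadjusted p under 0.05 with the Actb covariate and 42 to 88 on leaving out single arrays (42 without knockout replicate 2).

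Signs changed as follows. Quantile normalization gave -0.0173 for Psmc5, -0.0544 for Psmd2 and -0.0190 for Cops8. Centring gave -0.0152 for the dimmer Psmc4 probe set, -0.0388 for Psmd2, -0.0188 for Cops8 and -0.0379 for Ublcp1. Array weights gave 0.00847 for Psma1, 0.0212 for Psmb5 and -0.0520 for Ube2r2. The spike covariate gave 0.0376 for Psma1, -0.00221 for the dimmer Psmc4 probe set, -0.0288 for Psmc5, -0.0337 for Psmd2 and 0.0140 for Gps1. The Actb covariate gave 0.0287 for Psma1, -0.0759 for Psmd2 and 0.0923 for Gps1. Leaving out each array gave -0.0932 to 0.0410 for Psma1, -0.0974 to 0.0598 for Psmb5, -0.0184 to 0.106 for the dimmer Psmc4 probe set, -0.0475 to 0.0357 for Psmd2, -0.0274 to 0.132 for Capn2, -0.0222 to 0.0589 for Cops8, -0.226 to 0.109 for Derl1, -0.130 to 0.00383 for Gps1, -0.167 to 0.433 for Ube2r2 and -0.0657 to 0.0766 for Ublcp1.

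The sample labels state no pairing of hearts with equal replicate numbers. Deviations of same-numbered hearts correlated at -0.239, -0.101 and 0.193 over 643 probe sets. No such values are given for differently numbered hearts, so whether equal numbers share more than a number was not tested. With the replicate block, 0 members were called and the difference of the brighter Psmc4 probe set was 0.244 with an adjusted p = 0.459 in limma (0.334 to 0.721 over all alternatives). The block changed no other call.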
